A study of Caenorhabditis elegans with 2 samples.

Results

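The autophagy genes of Caenorhabditis elegans were examined for binding by a tagged protein, F37B4.10, and 31 genes of the 19973 protein-coding genes of the nuclear chromosomes were followed. They are the protein-coding genes whose symbols start with atg-, epg-, lgg- or sqst-, together with bec-1, unc-51 and the transcription factor gene hlh-30. Autophagy encloses cytoplasm, protein aggregates or organelles in a double membrane, the autophagosome, and delivers them to the lysosome for breakdown. A kinase complex starts the process, a lipid kinase and a lipid transfer machinery build the membrane, and conjugation enzymes attach ubiquitin-like proteins of the LGG-1 family to it. HLH-30, the worm relative of mammalian TFEB, is a bHLH factor known to activate autophagy and lysosome genes, and autophagy genes act in worm development, fasting survival and lifespan.

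The data came from chromatin immunoprecipitation followed by sequencing (ChIP-seq) with an antibody against GFP in whole young adults of strain OP374, aged 61 h. All samples formed 1 group of 2 biological replicates. The animals had the mutation unc-119(tm4063), the unc-119(+) copy and the transgene wgIs374, which expresses F37B4.10 fused to TY1, EGFP and 3xFLAG, and they had been starved as L1 larvae after bleaching to bring them to the same age. Binding in different tissues is averaged in whole animals, the tagged protein came from a transgene, and a single strain was used. The number of reads is unknown, and no untreated or untagged sample was analysed here.

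The authors' joint ranked list holds 115634 candidate peaks from both replicates, each with a signal (the authors' value, whose scale is not stated) and an irreproducible discovery rate (IDR, which is low where a peak ranks alike in independent inputs). Their conservative list keeps 843 peaks, with a highest IDR of 0.01003, and all 843 are in the ranked list. The ranked list holds 905 peaks at an IDR of 0.01 or below, so such an IDR alone does not place a peak on the conservative list. The replicates' own ranked lists hold 58046 and 63045 peaks, with median signals of 16.01 and 18.9, and their thresholded lists hold 81 and 99. Each gene was given the peak of highest signal whose summit lay in its body or up to 1000 bp upstream of one of its starts. The ranked list is permissive: 18202 of 19973 genes (91.1%) had such a peak, with a median of 4 per gene, so a ranked peak by itself separates few genes.

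Peaks of the conservative list lay at 4 of the 31 autophagy genes, epg-9, atg-9, hlh-30 and lgg-2. This is 12.9% of them (exact 95% interval 3.63 to 29.8%, counting error only), where 3.43% of all protein-coding genes had one. The interval treats the 31 chosen genes as independent draws and is not a test against that share. These 4 genes held 6 peaks, a pair each at epg-9 and hlh-30. Across all genes, 0.305% held at least 2. Both epg-9 and hlh-30 were in the class of longest windows described below. The share with at least 2 in that class is not given, so 0.305% is not a comparison at equal length. The sequences from 50 bases before to 50 bases after the summits of these 6 peaks are printed because they are the sequence that the authors' strictest joint list places at autophagy genes. All were read from the RefSeq genome, on the + strand of WBcel235 (the same sequence as ce11), and run 5′ to 3′. Capitals mark a run of 12 bases that occurs in 2 copies.
epg-9, strongest, IV:2602137-2602237: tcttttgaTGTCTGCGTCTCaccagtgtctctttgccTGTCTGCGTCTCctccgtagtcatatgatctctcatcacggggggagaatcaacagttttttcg
epg-9, next, IV:2603556-2603656: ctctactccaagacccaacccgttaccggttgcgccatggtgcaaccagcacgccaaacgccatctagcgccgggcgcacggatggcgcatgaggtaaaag
hlh-30, strongest, IV:4018781-4018881: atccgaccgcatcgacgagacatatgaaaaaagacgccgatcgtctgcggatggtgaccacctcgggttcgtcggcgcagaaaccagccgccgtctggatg
hlh-30, next on the conservative list, IV:4032110-4032210: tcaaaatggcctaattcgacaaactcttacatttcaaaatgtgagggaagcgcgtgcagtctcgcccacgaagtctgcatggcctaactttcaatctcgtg
lgg-2, IV:10936060-10936160: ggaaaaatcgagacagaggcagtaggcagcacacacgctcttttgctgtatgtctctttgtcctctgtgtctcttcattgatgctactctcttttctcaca
atg-9, V:357108-357208: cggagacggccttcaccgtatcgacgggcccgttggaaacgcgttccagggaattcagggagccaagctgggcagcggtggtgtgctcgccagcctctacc

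The strongest peak at any autophagy gene was in an intron of epg-9 (WBGene00022078), which encodes the worm relative of ATG101, a subunit of the initiation complex. Its signal was 155 in the joint list, 75.0 in replicate 1 and 83.6 in replicate 2. It ranked 46 of the joint ranked list, 50 and 49 of the replicates' lists, and 25 of the conservative list, with an IDR of 0.000143. Both replicates placed it near the top of their lists, and 99.9% of protein-coding genes had a weaker strongest peak or none. The summit was 1046 bp downstream of the gene's start. The next epg-9 peak, in another intron 2465 bp from the 5′ end, had signals of 74.8 jointly, 29.5 in replicate 1 and 49.9 in replicate 2. It ranked 545 jointly, 2952 in replicate 1 and 307 in replicate 2, so the replicates placed it less alike than the first.

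Of the 4 initiation genes, 3 had their strongest peak at an IDR of 0.05 or below, which 14.6% of all protein-coding genes had. The windows of these 3, epg-9, unc-51 and epg-7, were in the class of longest windows described below, where 28.3% of all genes passed. The kinase gene unc-51 (WBGene00006786), relative of yeast ATG1, had a peak in an intron 4435 bp downstream of a start with a joint signal of 58.4, a joint rank of 2550 and an IDR of 0.0297. The same place gave 23.4 in replicate 1, rank 9443, and 34.9 in replicate 2, rank 2847. epg-7 (WBGene00020334), a scaffold related to yeast ATG11, had 60.9 jointly, rank 1968, with an IDR of 0.0371, in coding sequence 1591 bp from a start. Replicate 1 listed it at 28.8, rank 3397, and replicate 2 had no peak within 150 bp. The remaining initiation gene, atg-13, encodes a regulatory subunit of the kinase complex and had a joint signal of 33.9, below the median of all genes with a peak, 39.96. Its peak was matched only in replicate 2, at 22.6. The unc-51 sequence is shown because it is built from a short word, with each GGACC in capitals: 7 copies fell within 50 bases of the summit, and 7 of 115634 ranked peaks (0.00605%) held at least as many. The word was picked by reading this sequence, and the 7 include this peak, so its rarity is a description only.
unc-51, V:20000000-20000100, + strand, WBcel235: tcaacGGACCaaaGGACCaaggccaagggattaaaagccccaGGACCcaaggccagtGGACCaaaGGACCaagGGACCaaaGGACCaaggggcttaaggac

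Among the 4 genes of membrane supply, atg-9 (WBGene00020706), the transmembrane protein whose vesicles seed the growing membrane, had the strongest peak. Its joint signal was 83.9, with 36.1 in replicate 1 and 44.6 in replicate 2. The ranks were 295 jointly, 863 and 589, and the IDR was 0.00225. The summit lay in coding sequence 7773 bp from the 5′ end of the gene and 484 bp upstream of an internal start, so it is close to the first exon of a shorter transcript and far from that of the longest. epg-6 (WBGene00012641), which encodes a phosphoinositide-binding protein of the WIPI family, had 61.2 jointly, rank 1909, at an IDR of 0.0239, in an intron 258 bp upstream of an internal start. Replicate 1 listed 33.12 there, rank 1484, and replicate 2 none. The lipid transfer protein gene atg-2 had 43.5 and the other WIPI gene, atg-18, 42.8, both with an IDR above 0.05.

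**Figure D1:**
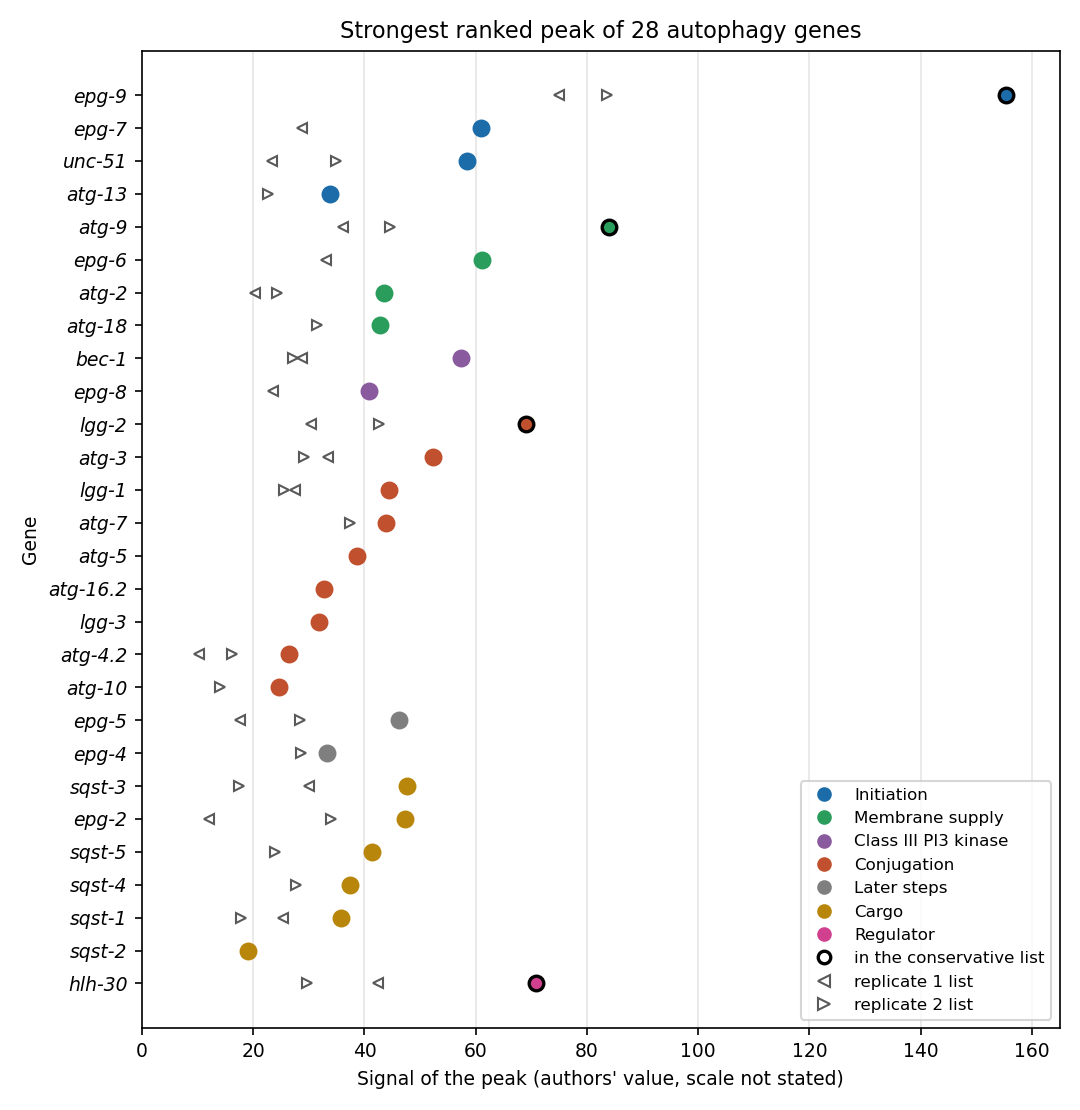
Signal of the strongest joint ranked peak at each of the 28 autophagy genes that had one, with the signal of the peak matched within 150 bp in each replicate's own list (x axis, the authors' signal, scale not stated). Colours give the role, black rings the genes with a conservative peak; epg-9 stands at 155 and the others lie between 19.0 and 83.9.

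The 2 genes of the class III PI3 kinase complex, which makes the lipid signal on the forming membrane, gave joint signals of 57.4 and 40.8. The first was bec-1 (WBGene00000247), relative of mammalian Beclin 1, in an intron 744 bp from a start, with a joint rank of 2842 and an IDR of 0.0339. Its peak measured 28.7 in replicate 1, rank 3484, and 27.2 in replicate 2, rank 10408. The other was epg-8, the coiled-coil partner related to ATG14, whose peak had a match in replicate 1 only, at 23.5. The bec-1 sequence is shown as the one of lowest GC content among the strongest peaks, 25.7%, and the atg-3 sequence of the conjugation group because it holds an E-box, in capitals, that starts 1 base before the summit.
bec-1, IV:5661513-5661613, + strand, WBcel235: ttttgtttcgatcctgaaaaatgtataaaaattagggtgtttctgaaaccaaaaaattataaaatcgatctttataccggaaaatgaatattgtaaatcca
atg-3, IV:1010615-1010715, + strand, WBcel235: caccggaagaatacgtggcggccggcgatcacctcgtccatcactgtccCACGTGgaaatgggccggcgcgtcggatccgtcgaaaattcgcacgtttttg

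The conjugation genes were the largest group, 11 genes of which 9 had a ranked peak and 3 an IDR of 0.05 or below, where the shares of all genes were 91.1% and 14.6%. The median over those with a peak was 38.6. lgg-2 (WBGene00002981), a ubiquitin-like protein of the LC3 subgroup, had 69.0 jointly, 30.3 in replicate 1 and 42.7 in replicate 2. Its ranks were 912, 2524 and 762, its IDR 0.00562, and the summit lay 207 bp upstream of a start. It was the only one of the 6 conservative peaks at autophagy genes that lay outside the gene body. The lgg-2 window held 2 further peaks at an IDR of 0.05 or below, with signals of 52.8 and 47.6, inside the gene. lgg-1 (WBGene00002980), of the GABARAP subgroup and the usual marker of autophagosomes in worms, was lower: 44.4 jointly, 27.5 in replicate 1 and 25.6 in replicate 2, with ranks of 10970, 4430 and 13417 and an IDR of 0.0464. Its summit was in coding sequence 444 bp from a start. Another lgg-1 peak, 261 bp upstream, measured 36.5 jointly with an IDR of 0.417. There replicate 2 had 37.7, rank 1722 and an IDR of 0.0456 in its own list, and replicate 1 had 6.79, rank 53008. atg-3 (WBGene00021922), the enzyme that passes LGG proteins to lipid, had 52.3 jointly, 33.5 in replicate 1 and 29.1 in replicate 2, in coding sequence 153 bp from a start, with an IDR of 0.0182. It ranked 4910 jointly, 1397 in replicate 1 and 7700 in replicate 2. That peak also fell in the window of the neighbouring gene Y55F3AM.9.

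The other conjugation genes gave lower joint signals. The activating enzyme gene atg-7 had 43.9, the ATG12 acceptor atg-5 38.6, its partner atg-16.2 32.7, the ATG12 relative lgg-3 31.8, the protease atg-4.2 26.4 and the conjugating enzyme atg-10 24.7. For atg-5, atg-16.2 and lgg-3 neither replicate's list had a peak within 150 bp. The protease gene atg-4.1 and the ATG16 relative atg-16.1 had no joint ranked peak in their windows.

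None of the 3 genes of the later steps or the 6 of cargo recognition passed an IDR of 0.05, a limit that 14.6% of all genes passed, and in groups of this size a count of 0 is close to that background. epg-5, a tether for fusion with lysosomes, had 46.3 and epg-4, a membrane protein of the endoplasmic reticulum, 33.4. epg-3, the relative of VMP1, had no joint ranked peak. sqst-1 (WBGene00011737), the relative of the cargo receptor p62, had 35.7 jointly, 25.4 in replicate 1 and 17.8 in replicate 2, in coding sequence 706 bp from a start, with an IDR of 0.141. It ranked 24279 jointly, 6553 in replicate 1 and 35274 in replicate 2. The other genes named sqst- ranged from 47.7 at sqst-3 through 41.3 at sqst-5 and 37.4 at sqst-4 to 19.0 at sqst-2, the lowest value of all 28. sqst-3 (WBGene00012067) measured 30.1 in replicate 1 and 17.4 in replicate 2, with ranks of 7918 jointly, 2632 and 36375 and an IDR of 0.131. Its summit lay 8 bp upstream of a start, and the peak also fell in the window of str-81. epg-2, an adaptor for germ granule proteins known from worm embryos, had 47.3, with 12.1 in replicate 1 and 33.9 in replicate 2, at a peak that also fell in the window of tpxl-1.

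The regulator gene itself, hlh-30 (WBGene00020930), had 2 conservative peaks. The stronger measured 70.8 jointly, 42.4 in replicate 1 and 29.7 in replicate 2, and ranked 773 jointly, 319 in replicate 1 and 6968 in replicate 2. The replicates therefore ranked it far apart, and its IDR of 0.00995 was just inside the limit of 0.01, with atg-3 at 0.0182 the next outside. It lay in coding sequence 16120 bp from the 5′ end and 208 bp downstream of an internal start. The other conservative peak, in an intron 2791 bp from the 5′ end, had 60.4 jointly, 30.8 in replicate 1 and 36.3 in replicate 2. It ranked 2094 jointly, 2318 in replicate 1 and 2244 in replicate 2, and its IDR of 0.00957 was also just inside the limit. hlh-30 has 10 annotated starts and a gene body of 20159 bp, and the body with the 1000 bp upstream held 33 ranked peaks. A further 3 of these had an IDR of 0.05 or below, with signals of 60.8, 53.4 and 50.4 at 8872, 5059 and 18082 bp from the 5′ end.

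**Figure D2:**
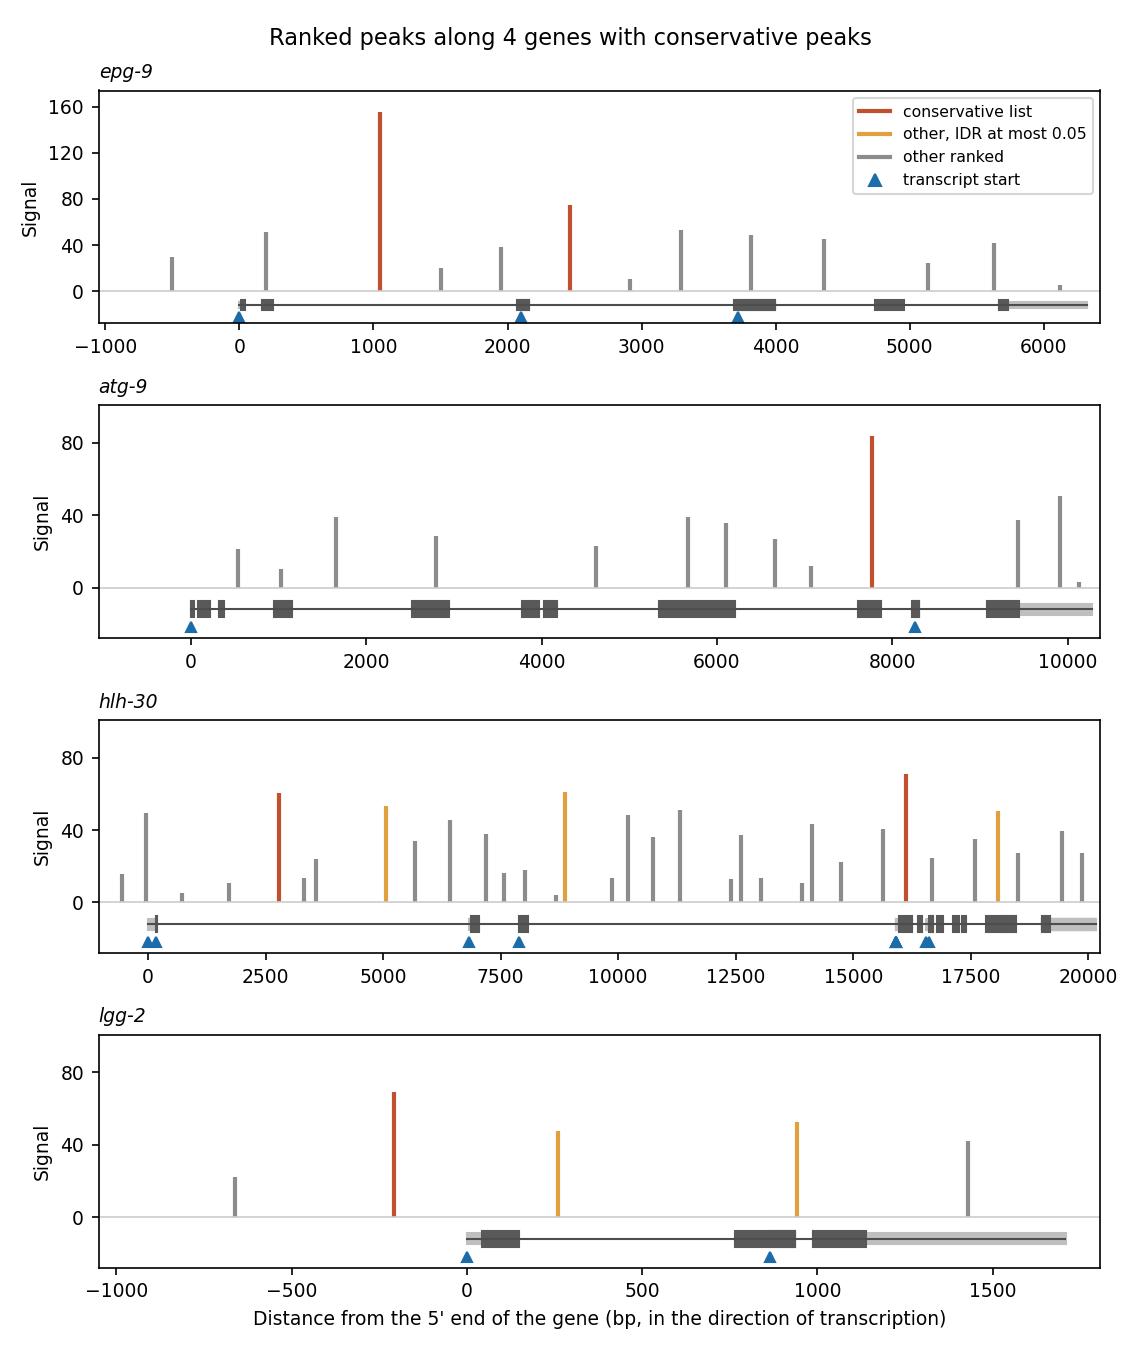
Ranked peaks along the 4 genes with conservative peaks (x axis, distance from the 5′ end in bp, y axis, the authors' joint signal, scale not stated), with gene models below. The conservative peaks stand in introns of epg-9, in coding sequence of atg-9, in coding sequence and an intron of hlh-30, and upstream of lgg-2.

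Read over all members, 10 of 31 strongest peaks had an IDR of 0.05 or below, where 14.6% of protein-coding genes did. The 10 make 32.3% (exact 95% interval 16.7 to 51.4%, counting error only). In the class of longest windows, described below, 5 of 10 autophagy genes passed, where 28.3% of all genes in that class did. The other classes, from shorter to longer windows, gave 1 of 5, 0 of 2, 2 of 7 and 2 of 7. The shares of all genes there were 8.92%, 8.68%, 10.9% and 15.9%. At 0.01 the count was 4, where 3.35% of all genes passed. The median signal of the 28 genes with a peak was 43.7, and that of all genes with a peak was 39.96, with 10th and 90th percentiles of 24.0 and 59.0. Counting genes without a peak as lowest, 19 of 31 were above the median of all genes, and the median autophagy gene exceeded 62.4% of all genes. The bulk of the autophagy genes therefore sat inside the range of other genes, and 7 of 31 stood above 90% of genes. For epg-7 and unc-51 this did not hold among genes of similar window length, as given below. The list was chosen with earlier results of these data known, and no test was made. The intervals treat the 31 genes as independent draws and are not a comparison with all genes.

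**Figure D3:**
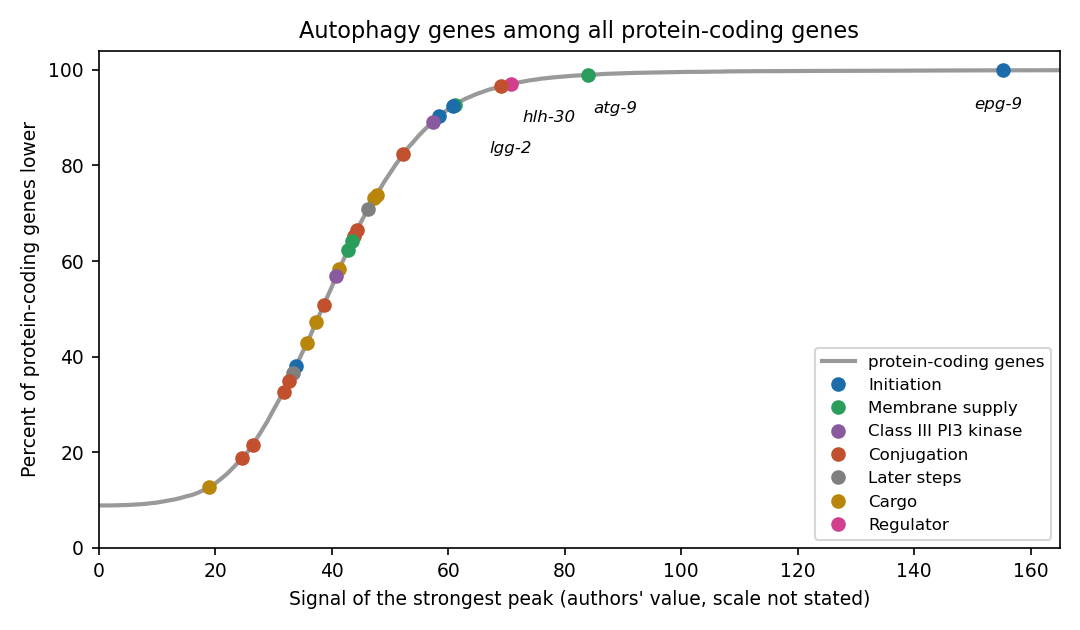
Percent of the 19973 protein-coding genes with a weaker strongest peak or none (y axis) against the signal of the strongest peak (x axis, the authors' value, scale not stated). The grey line is all genes and each dot an autophagy gene coloured by role; the dots run from 19.0 at sqst-2 to 155 at epg-9.

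Gene windows differ in length, and the median was 3610 bp for autophagy genes and 3027 bp for all genes. Of 5 length classes of nearly equal size, the class of longest windows, from 5321 bp up, held 10 autophagy genes. A conservative peak lay at 3 of these 10, where 6.96% of all genes in that class had one. In the other 4 classes 1 of 21 had one, lgg-2, where the share of all genes was 2.55%. Per kilobase, autophagy genes held a median of 1.34 ranked peaks and all genes 1.27. Compared only with genes of their own length class, the median autophagy gene exceeded 64.9%.

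The replicates' own lists narrowed the result to epg-9. It was the only autophagy gene with a peak in replicate 1's thresholded list, where 0.345% of all genes had one, and the only one in that of replicate 2, where the share was 0.386%. The authors' other joint thresholded list, of 947 peaks, held peaks at the same 4 genes as the conservative list, with 3.81% of all genes. At hlh-30 the lists differed in 1 peak. The other list lacked the conservative peak of 60.4 and held instead the one of 60.8, 8872 bp from the 5′ end. Of the 28 strongest joint peaks, 17 had a peak within 150 bp in replicate 1, where 67.8% of all genes with a peak did, and 21 in replicate 2, where the share was 72.6%. Both replicates matched 14 of 28, close to the 51.5% of all genes, and 4 had no match in either. A matched peak was not always the replicate's strongest in the window. That strongest peak was within 150 bp of the joint one at 11 of 28 in replicate 1 and 15 of 28 in replicate 2. The share over all genes is not given. At bec-1, replicate 1's strongest, 37.3 at rank 705, lay 3284 bp away. At hlh-30, replicate 2's strongest, 36.6 at rank 2128, lay 11054 bp away.

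**Figure D4:**
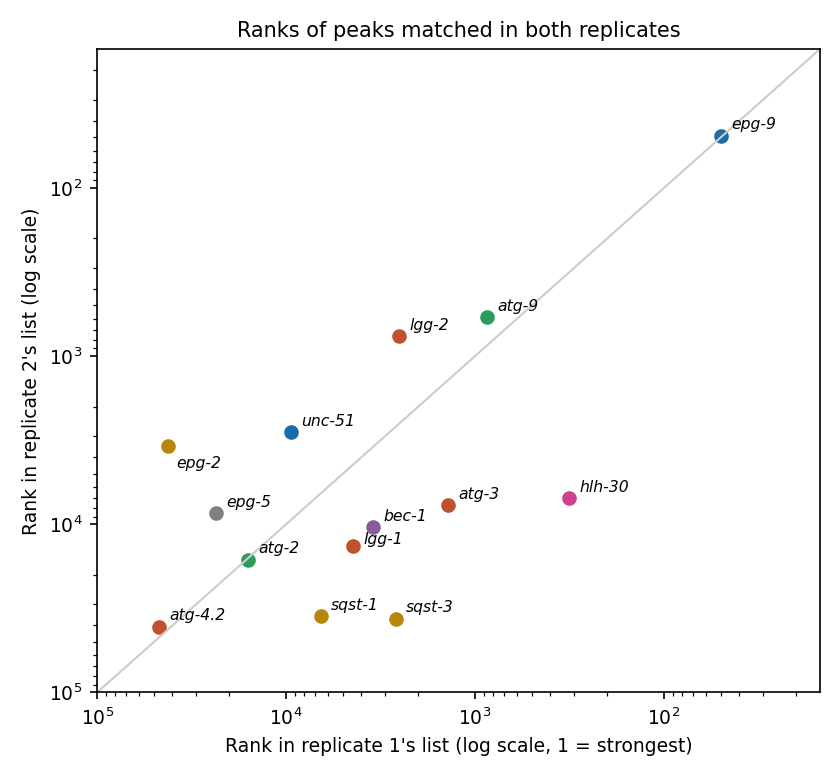
Rank in replicate 1's own list (x axis, log scale) against rank in replicate 2's own list (y axis, log scale) for the 14 autophagy genes whose strongest joint peak was matched within 150 bp in both; rank 1 is the highest signal. epg-9 is at 50 and 49 in the corner near the line of equal rank, and hlh-30 at 319 and 6968 lies well off it.

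The 3 genes with no joint ranked peak form 3 of 31, and 8.87% of all genes had none. The nearest joint ranked summit lay 2240 bp outside the window of atg-16.1, 2170 bp outside that of atg-4.1 and 1164 bp outside that of epg-3. Single replicates did list peaks in these windows. Replicate 1 had 3 at atg-16.1, the strongest at 20.5, and 2 at epg-3, the strongest at 21.8. Replicate 2 had 2 at atg-4.1, the strongest at 27.8. All 3 genes thus had a candidate in 1 replicate and none in the joint list.

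By position, 13 of 28 strongest peaks lay in coding sequence, 8 in introns, 6 upstream of the gene and 1 in a 3′ UTR. The shares, 46.4%, 28.6% and 21.4% for the first 3 classes, compare with 39.6%, 24.7% and 31.0% over all genes with a peak. A start of the same gene was within 1000 bp for 21 of 28, or 75%, where the share over all genes was 68.5%. GC content within 50 bases of the summit ranged from 25.7% at bec-1 to 65.3% at atg-9, with a median of 42.6%. The median was 41.6% at the strongest peaks of all genes and 50.5% at conservative peaks. Bases soft-masked as repeats in the reference were present at 14 of 28, and 7 of 28 also lay in the window of another protein-coding gene. The shares over all genes are not given. Soft-masked bases made up 38.6% of the printed window of the strongest epg-9 peak and 63.4% of that of bec-1. They made up 21.8% at the weaker conservative peak of hlh-30 and none at the other conservative peaks. The case of the printed letters does not show them.

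Few of these windows held any of the 3 known factor motifs searched, and the counts are small. The E-box CACGTG, bound by HLH-30 and its relatives, was in 2 of 28 strongest peaks (7.14%), at atg-3 and sqst-4. It was in 2.64% of the strongest peaks of all genes. The forkhead sequence GTAAACA was in 0 of 28 and in 173 of 18202 over all genes. The GATA sequence TGATAA was in 3 of 28 (10.7%), at sqst-5, sqst-4 and atg-4.2, and in 7.27% over all genes. None of the 3 was in any of the 6 conservative peaks printed above. Motifs were searched on both strands within 50 bases of the summit, and a match or its absence says only whether the letters are there.

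The repeated run of the strongest epg-9 peak, TGTCTGCGTCTC, starts 42 and 13 bases before the summit. Its last 9 bases, CTGCGTCTC, were searched on both strands after that sequence had been read, so epg-9 itself gives no support to the shares. They were present at 682 of 115634 ranked peaks (0.590%), 27 of 843 conservative peaks (3.20%) and 8 of the 100 strongest conservative peaks. Windows centred 100 bp upstream of protein-coding genes held them in 1.25%. Of the 208 ranked peaks in autophagy gene windows 4 held them: the epg-9 peak, 1 at epg-5 with a signal of 29.3, and 2 at hlh-30 with signals of 12.9 and 15.8. Apart from epg-9, these had signals below the median of the genes' strongest peaks.

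Genes around the pathway passed an IDR of 0.05 in shares close to the 14.6% of all genes. Of 15 upstream kinases and regulators, 2 had a strongest peak at an IDR of 0.05 or below (13.3%), and 1 had a conservative peak, rheb-1, the small GTPase that activates the kinase TOR. Its signal was 87.5 jointly, 60.6 in replicate 1 and 30.5 in replicate 2, and the summit lay 295 bp upstream. let-363, which encodes TOR, had 56.9 in coding sequence with an IDR of 0.0311. mxl-3, a repressor known to oppose HLH-30 at lipase genes, had 51.1 with an IDR of 0.107, matched only in replicate 2, at 36.7. Of 17 genes for the lipid kinase, receptors and fusion, 3 passed 0.05 (17.6%) and 1 had a conservative peak, vps-39 of the HOPS tether, 510 bp upstream at 95.98 jointly, 47.3 in replicate 1 and 48.2 in replicate 2. Of 55 lysosome genes, 8 passed 0.05 (14.5%) and 0 had a conservative peak. The conservative counts of 1 of 15, 1 of 17 and 0 of 55 stand beside 3.43% of all genes. Median signals were 48.0, 42.7 and 41.9 in these lists, beside 43.7 for the autophagy genes.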

How the data were processed

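ChIP-seq peak lists from whole young adults of 1 group with 2 biological replicates were analysed. Per the README text the authors deposited, lists use the ce11 assembly and derive from filtered alignments and a control file, and thresholded lists also from a further file of unstated content. The aligner and peak caller are not given in the sources used, and read depth is unknown. The authors' lists give a signal per peak, whose scale is not stated, an IDR as deposited −log10 values, and a deposited score that is the IDR rescaled. Signals were used to rank peaks within a list, and those of different lists may differ in scale. In the joint ranked lists, 16 columns that name no sample were not used.

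Summits were assigned to 19973 protein-coding genes (Ensembl release 115, WBcel235), from 1000 bp upstream of any start to the end of the gene. Replicate peaks matched within 150 bp. Where a deposited signal is given for a replicate, it is that of the matched peak. Companion genes came from 3 lists, and lst-8 was not matched by symbol. The roles of the autophagy genes were assigned from textbook knowledge. Members and lists were chosen with earlier results of these data known. All members were accounted for, and full values were given for hlh-30, bec-1, unc-51, lgg-1, lgg-2, sqst-1, members with a joint thresholded peak and the 10 members of highest signal. Companion genes were named where a conservative peak lay in the window, with mxl-3 and let-363. With 1 group no test was made. Intervals are exact (Clopper-Pearson) at 95%. Alternatives were other windows, IDR limits, lists, matching distances, and each replicate alone. Assignment was tested on simulated peaks. Scripts ran under Python 3.11.15 (pandas 2.3.3, numpy 2.4.6, matplotlib 3.10.9, scipy 1.17.1).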

Additional observations from a re-analysis of the deposited data

How the results depend on the processing

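The count of 4 autophagy genes with a conservative peak was 2 with the 421 strongest conservative peaks (atg-9 and epg-9, with 1.76% of all genes), and 1 with either replicate's own thresholded list, which makes 1 to 1 over the runs without a replicate. It was 3 or 4 with the other joint list (3.81% of all genes) and with other windows. A start window (1000 bp before a start and 200 bp after it) lost epg-9, with 1.74% of all genes. The gene body alone lost lgg-2, with 2.18%. The count stayed at 4 with 500 bp upstream (2.91%) and 2000 bp upstream (4.17%). It was also 4 with any base of the peak in the window (3.62%) and with the gene of the nearest start (3.82%). The count of 10 at an IDR of 0.05 was 4 at 0.01 (3.35%), 11 at 0.1 (where 27.3% of all genes passed), 8 with the other joint list (16.09% of all genes), which lost epg-6 and lgg-1, 6 within the start window (6.54%), and 2 to 2 over single replicates' lists, epg-9 with lgg-1 at its upstream peak in replicate 2 (1.18%) and epg-9 with hlh-30 in replicate 1 (1.01%). The median percent of genes exceeded, 62.4, was 69.2 without replicate 1, 62.4 without replicate 2, and 58.3 to 65.4 under the other settings. Peaks matched in both replicates were 14 of 28, 9 within 50 bp and 14 within 300 bp. The cause of these shifts was not tested. Signals of strongest peaks moved at 2 of 28 genes in the other joint list, epg-6 (35.5) and sqst-2 (10.8), and at 5 of 28 when peaks were ranked by IDR, hlh-30 (60.4), atg-2 (5.53), atg-7 (24.7), atg-16.2 (16.5) and atg-13 (32.9). No paired analysis was possible because there is 1 group. Unknown depth and unstated signal scale limit what an absent peak can show, and whole animals average over tissues.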
